A study of Bos taurus with 56 samples.

Results

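The 2 genes described are CAPN1 (ENSBTAG00000010230), which encodes calpain 1, and CAST (ENSBTAG00000000874), which encodes calpastatin. They were chosen by gene ID for their part in meat tenderness, 2 of the 20791 genes listed. The deposited tables hold IDs only, so both names come from that choice. The RNA came from the Longissimus dorsi, the muscle of the loin, of bulls held in a feedlot for 120 days. Bulls were Bonsmara, a breed the labels call Sanga-related, or Nguni, a Sanga breed. Their feed held 12.0 MJ of metabolizable energy in each kg (high energy) or 10.9 MJ (low energy). The 42 libraries analysed carry 14 title stems (such as B6 in B6_1) with 3 libraries each. The stems comprise 3 of Bonsmara on high energy, 3 of Bonsmara on low energy, 5 of Nguni on high energy and 3 of Nguni on low energy. Each stem was read as 1 animal, which the labels do not state, so p-values may measure only technical spread between samples.

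Calpain 1 is a calcium-dependent cysteine protease of the cytosol. After slaughter, as calcium rises in the muscle fibre, it cuts structural proteins such as desmin, titin, nebulin and troponin T, and this proteolysis softens meat during ageing. Calpastatin is the calpains' own inhibitor, and it binds the active enzyme through repeated inhibitory domains. Both genes carry markers used in selecting cattle for tenderness. The values below are RNA levels, and enzyme activity, autolysis and tenderness were not measured in these files.

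Library totals ran from 8156040 to 78224599 estimated counts, with a median of 12652807, and library B6_1 alone held 76.9% of the counts of its stem. The diet of 2 stems differs between sources: N1 is low energy and N11 high energy in the labels, and the deposited tables place each with the other diet. The labels were followed. Over 4882 genes, 9 of the 42 libraries correlated best with a library of another stem. Library B6_2 (Bonsmara, high energy) correlated at r = 0.732 with B11_3 and at most at 0.34 with its own stem. Library B11_2 (Bonsmara, low energy) correlated at 0.677 with B6_1 and at most at 0.266 with its own stem. The others were N008_3, N215_2, N14_1, N37_1, N1_2, N1_3 and N33_2, and N008_3 and N215_2 were closest to each other (r = 0.705). By the labels, the closest library had the other diet for 6 of the 9 and was of the other breed for 3 of them, with N33_2 (closest to B25_3) counted in both, and that of N14_1 was of its own group. The diet and breed comparisons of Nguni are thus touched as well as those of Bonsmara. The results were also computed without B6_2 and B11_2 and without all 9.

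Both genes were well expressed. CAPN1 averaged 34.7 CPM (counts scaled to the depth of the library) over the 14 stems, above the mean level of 85.8% of the 13219 genes tested, and CAST averaged 73.1 CPM, above 92.9%. A stem held 798 to 2834 counts of CAPN1 and 1263 to 5758 of CAST. CAST counts exceeded CAPN1 counts in 14 of 14 stems. This order is of counts and not of transcripts per length, since longer transcripts yield more fragments, so ratios of the genes are compared here only between samples.

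CAPN1, the protease gene, varied 2.01-fold over the stems. In Bonsmara on high energy it stood at 47.8 CPM in B199, 29.5 in B25 and 33.3 in B6, with a mean of 36.9 ± 9.62 (SD, n = 3). In Bonsmara on low energy it was 33.4 in B11, 36.3 in B126 and 44.8 in B51, with a mean of 38.1 ± 5.91 CPM (SD, n = 3). The ranges overlap, and B199 lies above every low-energy Bonsmara stem. In Nguni on high energy, the CAPN1 level was 28.97 CPM in N008, 25.3 in N11, 37.6 in N14, 50.7 in N35 and 27.0 in N37, with a mean of 33.9 ± 10.5 (SD, n = 5). In Nguni on low energy it was 30.4 CPM in N1, 26.5 in N215 and 34.1 in N33, with a mean of 30.3 ± 3.81 (SD, n = 3). N35 was the highest of the 14 stems and N11 the lowest, and both are high-energy Nguni. The order of the group means was Bonsmara low, Bonsmara high, Nguni high and Nguni low energy, and no neighbouring pair in it differed by more than the larger SD of the pair. As in any bulk tissue, fewer cells of a type and less RNA per cell cannot be told apart.

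CAST, the inhibitor gene, varied 2.75-fold. In Bonsmara on high energy it stood at 62.4 CPM in B199, 58.3 in B25 and 67.7 in B6, with a mean of 62.8 ± 4.71 (SD, n = 3). In Bonsmara on low energy it was 73.0 in B11, 74.0 in B126 and 67.1 in B51, with a mean of 71.3 ± 3.73 CPM (SD, n = 3). The 6 Bonsmara stems were thus close together, with a coefficient of variation of 8.96%. In Nguni on high energy, CAST was 68.2 CPM in N008, 61.9 in N11, 107.4 in N14, 121.6 in N35 and 71.8 in N37, with a mean of 86.2 ± 26.6 (SD, n = 5). In Nguni on low energy it was 60.4 CPM in N1, 85.6 in N215 and 44.2 in N33, with a mean of 63.4 ± 20.9 (SD, n = 3). N14 and N35 lay above every other stem and N33 below every other stem. The coefficient of variation over the 8 Nguni stems was 33.3%, and its difference from that in Bonsmara was not tested. The order of the group means was Nguni high, Bonsmara low, Nguni low and Bonsmara high energy. No neighbouring pair in that order differed by more than the larger SD of the pair. The Bonsmara groups, which are not neighbours in it, overlapped only through B51 at 67.1 CPM and B6 at 67.7 CPM.

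**Figure D1:**
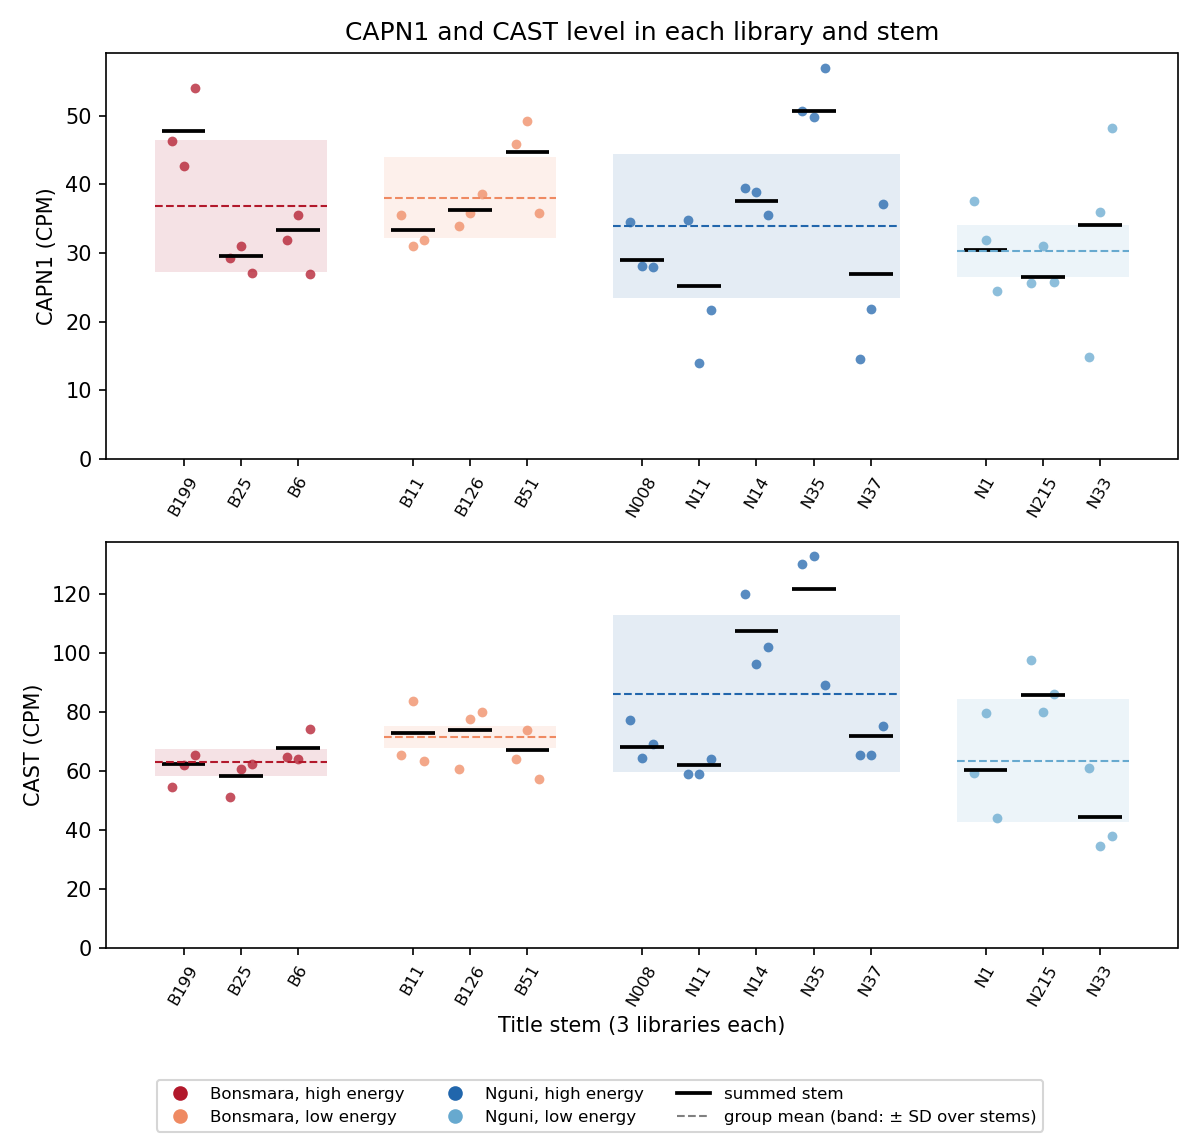
Levels of CAPN1 (upper panel) and CAST (lower panel) in CPM, by title stem and group; points are libraries, black lines the summed stems, dashed lines the group means and bands ± SD over stems. N35 and N14 carry the highest CAST levels, at 121.6 and 107.4 CPM. With TMM scaling, 3 libraries, all Nguni, carry CAPN1 below 20 CPM.

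The first question of the design is whether diet altered either gene. In Bonsmara, CAPN1 was 0.967-fold on high against low energy, a log2 difference of -0.05 ± 0.27 (SE), with an adjusted p of 0.981 in edgeR's quasi-likelihood test with Benjamini-Hochberg adjustment. CAST was 0.881-fold, a log2 difference of -0.18 ± 0.28 (SE), with an adjusted p of 0.916 in the same edgeR fit. In Nguni, CAPN1 was 1.12-fold (log2 0.16 ± 0.25, SE) and CAST was 1.36-fold (log2 0.44 ± 0.26, SE), and both had an adjusted p of 1.0 in edgeR. No diet difference passed the test. These SE come from a fit pooled over all 4 groups. With each breed fitted alone, CAST was at -0.19 ± 0.16 (SE) in Bonsmara, with an adjusted p of 0.59 in edgeR. In Nguni it was then at 0.45 ± 0.31 (SE). The Bonsmara means of CAST, 62.8 and 71.3 CPM, differ by more than the SD of either group, and the values of the groups still overlap. The Nguni value of CAST depends on single stems, at 0.26 without N33, 0.29 without N35 and 0.73 without N215. Under the tables' placing of N1 and N11, CAPN1 in Nguni was at 0.29. On the log2 scale the 95% interval for CAPN1 ran from -0.636 to 0.539 in Bonsmara and from -0.367 to 0.69 in Nguni, and that of CAST from -0.788 to 0.422 and from -0.106 to 0.992. Differences inside those intervals were not excluded with these stems. Averaged over breeds, CAPN1 differed by 0.06 ± 0.18 (SE) and CAST by 0.13 ± 0.19 (SE) on the log2 scale, with an adjusted p of 0.999 for each in edgeR.

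The second question is whether the breeds differ. On high energy, CAST was 1.37-fold in Nguni relative to Bonsmara, a log2 difference of 0.46 ± 0.26 (SE; 95% interval -0.093 to 1.01), with an adjusted p of 0.566 and an unadjusted p of 0.0967 in edgeR. The groups overlap, because N11 at 61.9 CPM lies below 2 of the 3 Bonsmara stems and the 2 highest values are those of N14 and N35. Without N35 the log2 difference was 0.3. CAPN1 on high energy was 0.92-fold in Nguni, a log2 difference of -0.12 ± 0.24 (SE), with an adjusted p of 0.872 in edgeR. On low energy CAPN1 was 0.795-fold (log2 -0.33 ± 0.28, SE) and CAST 0.889-fold (log2 -0.17 ± 0.28, SE) in Nguni, with adjusted p of 0.956 and 0.96 in edgeR. Averaged over diets, CAPN1 was 0.855-fold (log2 -0.23 ± 0.18, SE) and CAST 1.1-fold (log2 0.14 ± 0.19, SE) in Nguni, with adjusted p of 0.76 and 0.859 in edgeR. Neither passed, and leaving out single stems moved the CAST value from 0.019 (without N215) to 0.252 (without N33) and the CAPN1 value from -0.321 (without N35) to -0.116 (without B199). The diet effect was not shown to differ between breeds for either gene: the difference, Nguni minus Bonsmara, was 0.21 ± 0.37 (SE) for CAPN1 and 0.63 ± 0.38 (SE) for CAST on the log2 scale, with adjusted p of 0.926 and 0.855 in edgeR. For CAST that difference ran from 0.446 without N33 to 0.921 without N215, and for CAPN1 from 0.019 without N35 to 0.439 without B199. Without the 9 libraries closest to another stem, CAST in Nguni differed by 0.33 on the log2 scale for diet and, against Bonsmara, by 0.44 on high energy and -0.019 on low energy, and CAPN1 on high energy by -0.07. Without B6_2 and B11_2 only, CAST was at -0.13 for diet in Bonsmara and 0.45 for breed on high energy.

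**Figure D2:**
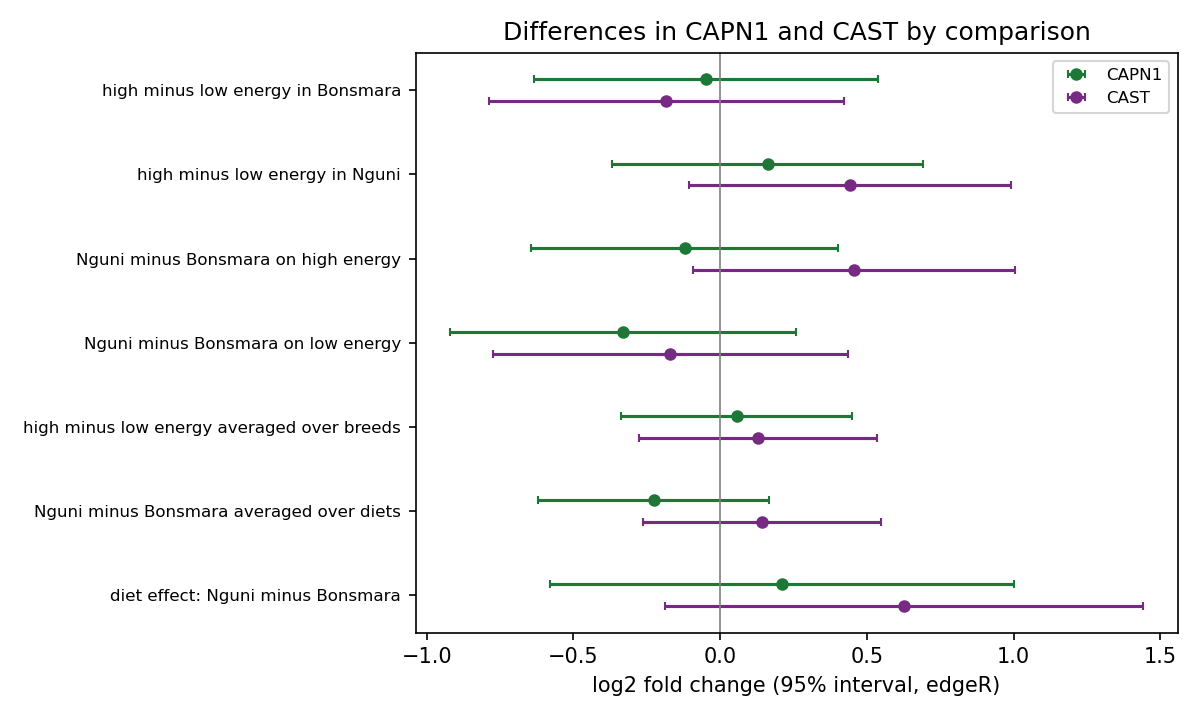
Log2 differences of CAPN1 (green) and CAST (purple) in the 7 comparisons, with 95% intervals from the edgeR fit on summed stems. Every interval spans 0, and the CAST intervals for Nguni on high energy, against Bonsmara (from -0.093) and against low energy (from -0.106), reach least far below it.

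Few genes of any kind passed in these comparisons. At an adjusted p under 0.05, edgeR called 0% of the 13219 genes in each of the 7 comparisons. At an unadjusted p under 0.05 the share was 3.84% (Bonsmara) and 3.03% (Nguni) in the diet comparisons, and 3.28% with the breeds averaged. Between breeds it was 8.73% on high energy, 3.62% on low energy and 8.65% with the diets averaged. The difference of the diet effect gave 4.18%. Neither CAPN1 nor CAST was among them in any comparison. DESeq2, run on the same stems, called 27 of 13040 genes for breed on high energy and 14 for breed averaged over diets. It called no more than 2 in any other comparison. A limma voom fit on single libraries, with stem as a random block, called 44 of 11340 genes and 16 in those 2 breed comparisons. In any other comparison it called no more than 1. Neither gene was among those calls. Between stems, CAPN1 had a biological coefficient of variation of 0.259 and CAST of 0.264 in edgeR and the median gene 0.35. Against genes within 2-fold of their own level, the SD over stems on the log2 scale was 0.308 for CAPN1, where the median gene had 0.346, and 0.36 for CAST, where it had 0.343.

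The ratio of CAPN1 to CAST counts does not depend on how libraries are scaled. In Bonsmara on high energy it was 0.766 in B199, 0.506 in B25 and 0.492 in B6, with a mean of 0.588 ± 0.154 (SD, n = 3). In Bonsmara on low energy it was 0.458 in B11, 0.49 in B126 and 0.668 in B51, with a mean of 0.539 ± 0.113 (SD, n = 3). The Bonsmara groups overlapped, with 1 high stem in each. In Nguni on high energy the ratio was 0.425 in N008, 0.408 in N11, 0.35 in N14, 0.417 in N35 and 0.376 in N37, with a mean of 0.395 ± 0.0314 (SD, n = 5). In Nguni on low energy it was 0.504 in N1, 0.309 in N215 and 0.772 in N33, with a mean of 0.528 ± 0.232 (SD, n = 3). The high-energy Nguni stems were the tightest group in the ratio, with a coefficient of variation of 7.94%, against 31% in their CAPN1 level and 30.8% in their CAST level. This holds for summed stems only. Their 15 libraries ran from 0.222 to 0.64, with an SD within stems of 0.445 on the log2 scale, against 0.234 and 0.196 in the Bonsmara groups on high and low energy. The Bonsmara libraries ran from 0.365 to 0.847, and most of the 15 lie inside that range. Those inside are every library of N008 (0.405 to 0.448) and of N35 (0.375 to 0.64), with N11_1 (0.593), N14_2 (0.404) and N37_3 (0.495).

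All 5 high-energy Nguni stems had a ratio below all 3 high-energy Bonsmara stems. The mean log2 ratio was lower in Nguni by 0.55 (0.685-fold), with an exact two-sided permutation p of 0.0179, the smallest that 56 arrangements allow. Doubling the smaller tail of the same permutation test gave 0.0357. Adjusted over the 6 ratio comparisons the exact p was 0.107, so the difference did not pass. Fully separated groups already give the smallest p, so this comparison could not have passed unless other comparisons also had a small p. The adjusted test therefore cannot decide whether the ratio differs. The group means behind it were 33.9 against 36.9 CPM for CAPN1 and 86.2 against 62.8 CPM for CAST. Without libraries B6_2 and B11_2 the log2 difference was -0.54, and without the 9 libraries closest to another stem -0.47, with an adjusted exact permutation p of 0.107 each time. Under the tables' placing of N1 and N11 it was -0.49 with an adjusted exact permutation p of 0.214, as N1, at a ratio of 0.504, then lies within the Bonsmara range. Leaving out B199 took it to -0.34.

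The other ratio comparisons overlapped. The log2 ratio on high minus low energy was 0.12 in Bonsmara (exact permutation p = 0.5, where 0.1 is the smallest that 3 against 3 allows) and -0.32 in Nguni (exact permutation p = 0.321). Breed on low energy gave -0.11 (exact permutation p = 1.0). Under the tables' placing of N1 and N11 the Nguni diet value was -0.16 and the breed value on low energy -0.21. Averaged over the other factor, diet gave -0.10 (exact permutation p = 0.618) and breed -0.33 (exact permutation p = 0.167), with adjusted values of 0.741 and 0.501. The averaged breed value depends on single stems. Without N33 it was -0.49 with an adjusted exact permutation p of 0.0429, and the diet difference in Nguni moved from -0.32 to -0.002. Without N215 the averaged breed value was -0.16.

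**Figure D3:**
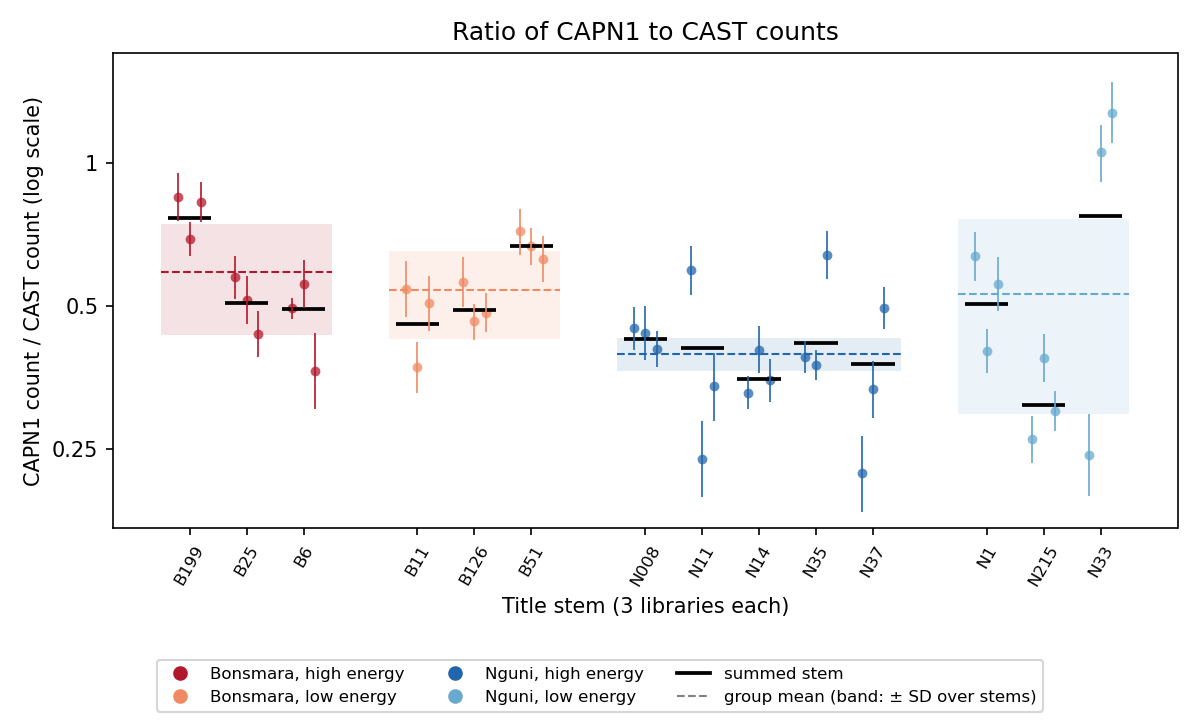
Ratio of CAPN1 to CAST counts on a log scale, by title stem; points are libraries with their 95% exact binomial counting intervals, black lines the summed stems, dashed lines the group means and bands ± SD over stems. The 5 high-energy Nguni stems lie between 0.35 and 0.425, and the libraries of N33 range from 0.243 to 1.27.

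N33 is not uniform. Its 3 libraries gave ratios of 0.243 (95% exact binomial interval 0.199 to 0.296), 1.05 (0.912 to 1.2) and 1.27 (1.1 to 1.48), where the intervals cover counting error only. The last 2 are the only libraries of the 42 with more CAPN1 than CAST counts. CAPN1 in the 3 libraries was 14.9, 35.95 and 48.3 CPM, and CAST was 61.1, 34.4 and 37.95 CPM, so both genes contributed. N33_2 was among the libraries closest to another stem, B25_3 (r = 0.613), and the part of this resemblance in the ratio was not tested.

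Pooled over stems, the SD between libraries of a stem was 0.364 on the log2 scale for CAPN1 and 0.229 for CAST, against 0.073 and 0.049 from counting alone. The order is not general: it was 0.158 for CAPN1 and 0.174 for CAST in Bonsmara. The fold range between libraries was wider for CAPN1 in 7 of the 14 stems and narrower in 6, and the widest were N33 (3.25-fold), N37 (2.57-fold) and N11 (2.49-fold). The intraclass correlation, the share of variance that lies between stems, was 0.378 for CAPN1 and 0.679 for CAST. Among the 2425 genes within 2-fold of CAPN1's level the median was 0.546, and 17% had a lower value than CAPN1. For CAST, 80.8% of the 1311 genes near its level had a lower value. Without N33 the intraclass correlation was 0.545 for CAPN1 and 0.667 for CAST, while the values of the other genes were not recomputed.

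By value and pooled over the stems of a breed, the libraries of Nguni stems scattered more than those of Bonsmara stems. The SD of CAPN1 within stems was 0.462 on the log2 scale over 8 Nguni stems and 0.158 over 6 Bonsmara stems. For CAST the values were 0.262 and 0.174, and for the log2 ratio 0.601 and 0.216. None of these differences was tested. CAPN1 spanned more than 2-fold between libraries in 3 stems: N11 from 14.02 to 34.9 CPM, N37 from 14.5 to 37.2 and N33 from 14.9 to 48.3. All 3 are Nguni, and no stem spanned 2-fold in CAST. Of the other Nguni stems, N008, N14, N35 and N215 spanned 1.11-fold to 1.24-fold in CAPN1 and N1 1.54-fold. The Bonsmara stems spanned 1.14-fold to 1.37-fold. These levels are scaled by TMM. By depth alone B6, a Bonsmara stem, also spans more than 2-fold in CAPN1. B6_3 held 163 CAPN1 counts among 10829737, and B6_2 held 467 among 12702861.

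Of the variation in CAPN1 over the 42 libraries, 7.53% of the sum of squares lay between the 4 groups, 49.2% between stems of a group and 43.3% between libraries of a stem. For CAST the shares were 20.6%, 56.7% and 22.6%. The median gene had 12.2% between groups, so the groups held a smaller share for CAPN1 than for the median gene, and a larger share for CAST. Among genes within 2-fold of the level of each member, the median was 14.8% for CAPN1 and 16.2% for CAST. These shares are not corrected for degrees of freedom. By the intraclass correlation above, most of the variance of CAPN1 lay between libraries of a stem when all stems were used. Without N33 that correlation was 0.545, and most of the variance then lay between stems.

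Whether the 2 genes varied together over stems depended on the scaling. With TMM scaling, Pearson's r of log2(CPM + 1) over the 14 stems was 0.338 (permutation p = 0.24) and Spearman's rho 0.226 (permutation p = 0.439), with Benjamini-Hochberg adjusted values of 0.48 and 0.919 over the 4 sets examined. With scaling by total counts only, r was 0.642 (permutation p = 0.0125). Without B199 and N35, the stems farthest from the median of CAPN1, r was 0.111. In Bonsmara r was 0.014 over 6 stems (exact permutation p = 0.992) and in Nguni 0.557 over 8 stems (exact permutation p = 0.163). Without N35 alone r was 0.018, so the positive value rests on that stem. Within stems, the deviations of the 42 libraries gave r = -0.161.

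**Figure D4:**
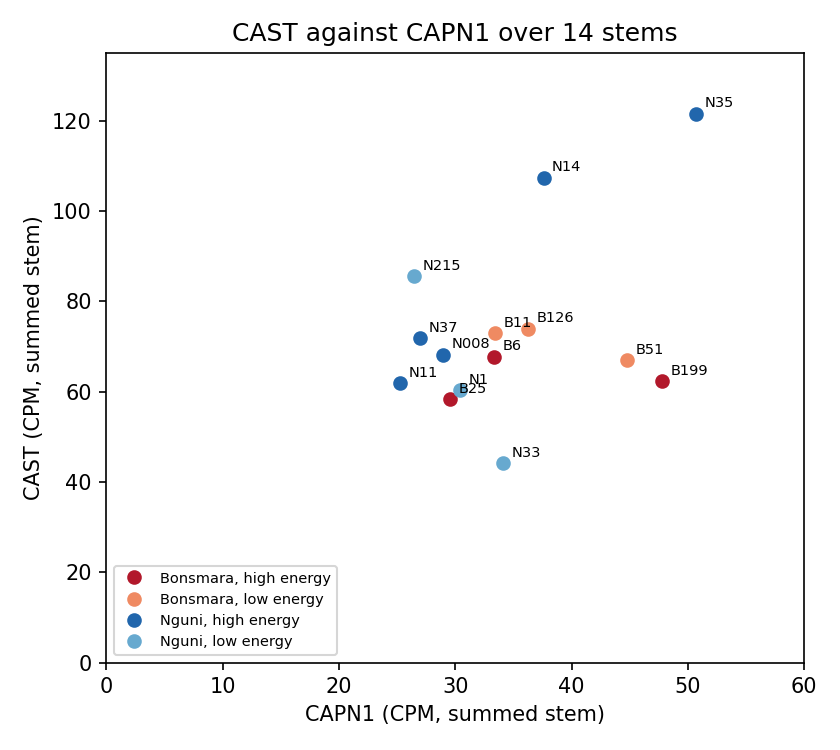
CAST against CAPN1 in CPM over the 14 summed stems, coloured by group. N35 stands apart at 50.7 CPM of CAPN1 and 121.6 CPM of CAST, and the 6 Bonsmara stems spread along CAPN1 at a nearly level CAST.

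Among 4915 genes with a mean of at least 10 CPM, CAST ranked above 74.8% in its correlation with CAPN1 over the stems, and CAPN1 above 69.6% in its correlation with CAST. The genes whose levels followed CAPN1 best were ENSBTAG00000018167 (r = 0.924, mean 13.6 CPM) and ENSBTAG00000014417 (r = 0.89, 33.2 CPM), and those most opposed were ENSBTAG00000008482 (r = -0.878, 196.0 CPM) and ENSBTAG00000019211 (r = -0.841, 16.9 CPM). For CAST the closest were ENSBTAG00000006063 (r = 0.957, 19.1 CPM) and ENSBTAG00000016779 (r = 0.926, 84.7 CPM), and the most opposed ENSBTAG00000016171 (r = -0.919, 10.6 CPM) and ENSBTAG00000011190 (r = -0.889, 94.2 CPM). These are the extremes of many correlations over 14 stems that share libraries and scaling, and are given as descriptions. No gene closest to one member was closest to the other.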

How the data were processed

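The authors deposited 4 tables of gene-level counts, taken here as estimated counts because the submitters' processing notes name Salmon (with Trimmomatic, FastQC and DESeq2, no versions). The build, annotation and strand setting: not given in the sources used here. All values were whole numbers. Each library stands in 2 tables, identical for 42 of 42, and was used once. Of 56 samples in the labels, 14 were not analysed here.

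The 3 libraries of a stem were summed. Of 20791 genes, 13219 passed edgeR's filterByExpr (minimum count 10). Stems were scaled by TMM (factors 0.7912 to 1.212), and the CPM of stems used these factors. The CPM of single libraries used TMM factors computed over the 42 libraries, which are not listed here. For B6_3 the factor lay outside the range of the stems: 163 CAPN1 counts among 10829737 gave 26.99 CPM. The 4 groups entered 1 robust fit in edgeR 4.0.16 (glmQLFit, run in R 4.3.3), with Benjamini-Hochberg adjustment over all 13219 genes. The log2 ratio was tested by exact two-sided permutation (SciPy 1.17.1), adjusted over 6 comparisons. Correlations used log2(CPM + 1) with 100000 permutations, or exact ones within breeds. The edgeR step was tested on simulated data. Alternatives used DESeq2 1.42.0 and limma 3.58.1.

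The members, lists and tests were chosen with earlier results of these data known. Genes named by likeness were the 2 most and the 2 least correlated with each member. A reference table of 37063 genes matched 0 of the IDs, so other calpain-system genes and markers of muscle or other cells were not analysed here, and the tissue was not checked against markers. Removal of libraries that resembled another stem was chosen after seeing the data.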

Additional observations from a re-analysis of the deposited data

How the results depend on the processing

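No alternative brought CAPN1 or CAST past an adjusted p of 0.05 in any comparison. Apart from leaving out stems, 86 of 88 alternative values for CAPN1 and 88 of 88 for CAST kept their direction. The exceptions were CAPN1 for diet averaged over breeds, at -0.007 with scaling by total counts only and -0.002 with limma voom and quality weights, and the cause was not tested. Scaling by totals moved the median log2 difference of all genes to -0.2 for diet in Bonsmara, 0.153 for breed on high energy and 0.209 for the difference of the diet effect. Relative to those medians CAPN1 stood at -0.016, -0.191 and 0.209, and CAST at -0.183, 0.439 and 0.62. The correlation of the genes rose to 0.642 (permutation p = 0.0125) with total counts only, and the cause was not tested. Leaving out each stem in turn gave a CAPN1 difference of -0.275 to 0.089 for diet in Bonsmara, -0.029 to 0.266 for diet in Nguni, -0.311 to 0.103 for breed on high energy and -0.055 to 0.131 for diet averaged over breeds, and a CAST difference of -0.442 to 0.029 for breed on low energy. The log2 ratio then ran from -0.089 to 0.281 for diet in Bonsmara, -0.428 to 0.231 for breed on low energy, -0.273 to 0.057 for diet averaged over breeds, and -0.487 to -0.158 for breed averaged over diets. The correlation ran from 0.018 to 0.456. No paired analysis was possible because the number after a stem counts libraries of that stem. It recurs in every group, but no number that marks a pair is shared by stems of different groups. Stems B11 and N11 share the number in their names, and the labels state no link between them. With 3 to 5 stems in a group, the number of stems limits precision more than the counts do, whose error is 0.073 (CAPN1) and 0.049 (CAST) on the log2 scale.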

Other observations

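The 3 libraries with CAPN1 below 20 CPM, N11_2 at 14.02, N37_1 at 14.5 and N33_1 at 14.9, come from 3 stems, and the next library stood at 21.6 CPM. They were picked after their values were seen. Their CAST levels, 58.8, 65.3 and 61.1 CPM, lay among those of the other libraries. Over 4882 genes, N37_1 correlated at r = 0.705 with N33_1 and at 0.624 with N11_2, where the median of libraries from different stems was -0.071 and that of libraries from the same stem 0.607. N33_1 with N11_2 gave 0.389. With TMM scaling, the 4 libraries with CAST above 100 CPM came from N14 and N35 only. N14_1 (120.0 CPM) correlated at 0.696 with N35_2 (132.7 CPM), more than with its own stem at 0.573 and 0.505. The part of these resemblances in the levels was not tested.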
